A study of Mus musculus with 13 samples.

Results

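The regions described here are the 1779 AEBP2 peaks that were called at promoters in the second AEBP2 library of wild-type mouse embryonic stem cells (mESCs), were missing from the first AEBP2 library and carried no H3K27me3 peak. They were taken from the 6779 peaks of AEBP2 replicate 2 on chromosomes 1 to 19, X and Y. Of these, 4324 overlapped no peak of AEBP2 replicate 1 by even 1 bp, 2474 of the 4324 also overlapped no peak of either H3K27me3 replicate, and 1779 of the 2474 overlapped the transcription start site (TSS) of a protein-coding gene or the 1 kb on either side of it. These 1779 are called replicate-2-only promoter peaks. Presence in the AEBP2 and H3K27me3 lists chose them, so those lists and the AEBP2 scores are given as descriptions. The tagged AEBP2 list was not used in the choice, and the DNA sequence was not used other than through the promoter.

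In chromatin immunoprecipitation sequencing (ChIP-seq), DNA bound by a protein or carrying a histone mark is recovered with an antibody and sequenced, and positions where the fragments pile up are called as peaks. The series holds 13 samples, and 5 peak lists were analysed, all from wild-type cells with no treatment. Endogenous AEBP2 (an antibody raised in the study) and H3K27me3 had 2 replicates each, from a 129/1 XY line of ES cells, grown with serum and LIF on gelatine. FS2-AEBP2, full-length AEBP2 with an N-terminal Flag-StrepII tag, had 1 sample and no replicate. The tagged protein had its own ChIP protocol, and the labels give the 129/1 line for it. The methods describe its expression from a plasmid in E14 mESCs for the purification of its partners. Their ChIP section names no cell line. The labels name the H3K27 antibody without a methylation state, which was taken from the study. All of these cells represent cell lines in culture, and nothing states whether the replicates were separate cultures. The SUZ12, input and AEBP2 KO samples were not analysed here.

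Polycomb repressive complex 2 (PRC2) methylates lysine 27 of histone H3, and its trimethylated product H3K27me3 marks silent developmental genes in mESCs. AEBP2 is a zinc finger protein that joins PRC2 as an accessory subunit. PRC2 is typically found at CpG islands, stretches of GC-rich DNA that keep their CpG dinucleotides, and most CpG islands without H3K27me3 are promoters of active genes.

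Every peak comes with a score, a whole number given by the caller on an unstated scale, and scores were therefore set side by side only for peaks of 1 library. Without read counts the depth is unknown, so a peak absent from a list does not show that the protein was absent. Shares are given with 95% Wilson intervals and differences between shares, in percentage points, with 95% Newcombe intervals. These intervals cover counting error over peaks or promoters, which are not replicates of an experiment. As a check of the cell type, none of 12 genes of the mESC state had H3K27me3 in both replicates at its TSS. However, 1 of them, Klf4, had it in replicate 1 and also had an FS2-AEBP2 peak. All of 12 lineage regulators that mESCs keep silent had H3K27me3 in both replicates, and all of these also had an AEBP2 replicate 2 peak.

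The sequences below show the searched word whose share differed by the most percentage points between the groups of AEBP2 peaks. It has 10 bases and is recognised by the transcription factor NRF1. NRF1 is known as an activator of housekeeping genes, among them nuclear genes of the respiratory chain. Each line gives 30 bases of mm9, read 5′ to 3′ on the strand that spells the word, and capitals mark the word, of which the fifth base was free. The first 6 lines are from the replicate-2-only promoter peaks with the highest scores that had the word within 50 bp of their centre, and the last 2 are from promoter peaks found in both AEBP2 replicates. Only Btbd9 was set by rule, and the other lines were chosen after their values were seen.
Btbd9, chr17:30713241-30713270, minus strand: agcgcgcagaGCGCGTGCGCggccacggcg
Vdac3, chr8:23704253-23704282, plus strand: ccgcgcctgtGCGCCTGCGCgcccgtcgtc
Ndufa6, chr15:82184679-82184708, minus strand: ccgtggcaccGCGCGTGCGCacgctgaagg
Map2k7, chr8:4238820-4238849, minus strand: acaccgcactGCGCCTGCGCtcggatgacc
Arpc1a, chr5:145844642-145844671, plus strand: gctacgttctGCGCCTGCGCctgcgccaag
Pola2, chr19:5964213-5964242, minus strand: gggaggaccgGCGCGTGCGCggggagggcg
Dctn5, in both replicates, chr7:129276469-129276498, minus strand: gtctccagctGCGCGTGCGCagagcgaaca
Armc6, in both replicates, chr8:72758381-72758410, plus strand: gtggcagccaGCGCCTGCGCaccaaggcaa

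Further words are shown at the highest-scoring replicate-2-only promoter peak that held each within 50 bp of its centre, again with the word in capitals. The ETS word CCGGAAGT and the word of YY1, in which 1 base was free, are common at promoters of housekeeping genes. GGGGCGGGG is the word of SP and KLF zinc finger proteins, and GCCAAT that of the NFY complex. For YY1 and the zinc finger protein ZBTB33 the capitals spell the word that was searched.
ETS at Bag6, chr17:35272317-35272346, plus strand: gactgggggagCCGGAAGTaccgcctcgag
YY1 at Ndufa6, chr15:82184642-82184671, minus strand: cttcctcggcAAGATGGCGGCcgcggccac
ZBTB33 at Srsf10, chr4:135411991-135412020, plus strand: gggagccaagTCTCGCGAGAagaggcagtt
SP/KLF at Parp6, chr9:59465117-59465146, minus strand: cggcaggccaaGGGGCGGGGaccgaggcgg
NFY at Nlk, chr11:78510991-78511020, plus strand: ccggctgccctaGCCAATccacgcccacct

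Longer stretches are printed for the highest-scoring of these peaks whose central 300 bases overlap no annotated exon, to show the base composition around the words. At Tom1 the window lies in an intron, is 489 bp downstream of the TSS at its centre, has a GC content of 62% and holds 27 CpGs, and the capitals mark 2 NFY words. At Afg3l1 the centre lies at -198 bp from the TSS, which is upstream, in an intron of another annotated protein-coding gene, the GC content is 58.3% and there are again 27 CpGs. The capitals there mark 1 NRF1 word on the minus strand. Both are mm9, plus strand.
Tom1, chr8:77557924-77558223: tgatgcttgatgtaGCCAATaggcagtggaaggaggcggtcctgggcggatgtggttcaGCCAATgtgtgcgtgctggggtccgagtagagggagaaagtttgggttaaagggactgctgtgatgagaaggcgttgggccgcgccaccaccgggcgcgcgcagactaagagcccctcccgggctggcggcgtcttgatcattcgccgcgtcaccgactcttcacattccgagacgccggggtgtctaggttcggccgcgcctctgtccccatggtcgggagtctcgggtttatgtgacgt
Afg3l1, chr8:126001455-126001754: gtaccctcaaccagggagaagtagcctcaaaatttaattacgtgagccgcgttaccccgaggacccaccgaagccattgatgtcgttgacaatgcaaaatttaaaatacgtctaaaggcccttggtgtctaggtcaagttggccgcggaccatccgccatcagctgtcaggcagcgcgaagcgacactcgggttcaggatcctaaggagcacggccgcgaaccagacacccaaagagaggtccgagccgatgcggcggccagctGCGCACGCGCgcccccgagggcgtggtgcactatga

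The replicate-2-only promoter peaks were mostly weak and short, with a tail of higher scores. Their score in replicate 2 ran from 1 to 53 with a median of 6 (quartiles 4 and 9), and their length ran from 158 to 3500 bp with a median of 486 bp. The 454 promoter peaks without H3K27me3 that replicate 1 shared had a median score of 16 (quartiles 8 and 32, maximum 193) and a median length of 655.5 bp. A score of 4 or less belonged to 579 of the 1779 (32.5%) and to 38 of the 454 (8.37%), and a score of 20 or more to 53 (2.98%) and 185 (40.7%). The scores of the 2 groups therefore overlapped over the whole range of the replicate-2-only peaks.

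The share of promoter peaks without H3K27me3 that replicate 1 lacked fell as the score rose. It was 93.8% of the 617 peaks with scores from 1 to 4, 89.4% of the 903 from 5 to 9, and 71.6% of the 475 from 10 to 19. It was 42.7% of the 103 from 20 to 29, and 6.67% of the 135 from 30 upwards. In the whole list the score ran from 1 to 193 with a median of 7.

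**Figure D1:**
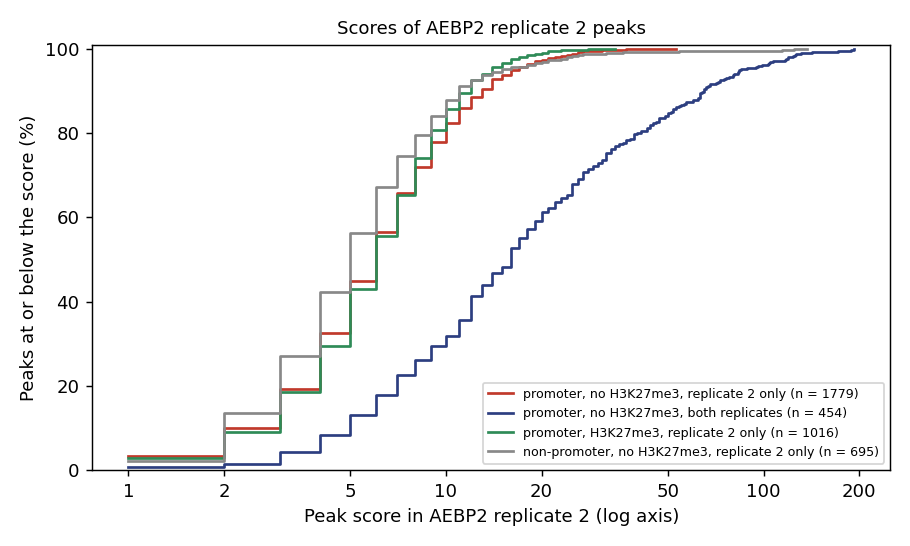
Cumulative share of AEBP2 replicate 2 peaks (vertical axis, %) at or below each score (horizontal axis, log scale) for 4 groups of peaks, 1 line each. The line of the 1779 replicate-2-only promoter peaks (median 6) runs beside those of the H3K27me3 promoter peaks (median 6) and the distal peaks (median 5), while the line of the shared promoter peaks (median 16) lies to the right.

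Of the peaks that replicate 1 lacked, 2 further groups served for comparison. These were 1016 promoter peaks that overlapped H3K27me3, called H3K27me3 promoter peaks, and 695 peaks without H3K27me3 away from promoters, called distal peaks. The H3K27me3 promoter peaks had the same median score of 6 but a median length of 1093 bp. The layout of broad peaks marks narrower inner stretches of stronger signal, and 1697 of the replicate-2-only promoter peaks (95.4%) had a single inner stretch, against 739 of the 1016 (72.7%). The distal peaks had a median score of 5 and a median length of 357 bp.

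The 10 highest scores lay at promoters of genes with varied housekeeping and signalling roles. None of these 10 peaks overlapped an FS2-AEBP2 peak. Prkaca, the catalytic subunit of protein kinase A, had the highest score, 53 (chr8:86496450-86497837, 1388 bp), with the centre of the peak 267 bp downstream of the TSS in an intron. Nlk, a serine/threonine kinase, followed with 40 (chr11:78510909-78511168, 260 bp), centred at -112 bp, upstream of the TSS. Tom1, an adaptor of endosomal trafficking, scored 37 (chr8:77557649-77558498, 850 bp).

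Afg3l1, a mitochondrial protease, scored 36 (chr8:126001204-126002005, 802 bp). The peak at Fam33a scored 33 (chr11:86922465-86923187, 723 bp) and also covered the start of the neighbouring gene Prr11. At 31 stood Rps6kb1, the S6 kinase (chr11:86357793-86358786, 994 bp, shared with the start of Tubd1), Btbd9 (chr17:30712980-30713628, 649 bp) and Vdac3, a channel of the outer mitochondrial membrane (chr8:23703955-23704562, 608 bp). Ttbk2, a kinase of tau and tubulin, scored 30 (chr2:120675898-120676419, 522 bp, beside the start of Cdan1). Cic, the transcriptional repressor Capicua, scored 28 (chr7:26052820-26053454, 635 bp). Of these 10, 4 lay on chromosome 8, and 3 (Afg3l1, Btbd9 and Vdac3) had the NRF1 word in the central 300 bp.

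The longest peaks did not have the highest scores. The peaks with the 10 highest scores, however, were all longer than the group's median of 486 bp, except that at Nlk (260 bp). The longest peak, 3500 bp at Ptma (chr1:88421410-88424909), the gene of prothymosin alpha, had a score of 3. It was followed by Ing1, a chromatin reader, with 2575 bp and a score of 11, and Plekha2, which encodes a phosphoinositide-binding protein, with 2462 bp and a score of 4.

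Few peaks lay near the limits of the rule. The nearest to a replicate 1 peak were those at Nop56, 396 bp away with a score of 5, and Lphn1, 632 bp away with a score of 2. In all 5 of 1779 (0.281%) lay within 1 kb of a replicate 1 peak, and the median gap was 181179 bp. Just outside the rule, the peaks at Eif4a2 (score 4) and Tomm7 (score 6) overlapped replicate 1 by 16 and 84 bp. The gap to H3K27me3 was 0 bp at Cdh3, where the peaks abutted, and 7 bp at Abhd8, both with a score of 6, and 104 peaks (5.85%) lay within 1 kb of the mark. The median gap to H3K27me3 was 63963 bp. Just outside, the peaks at Gm6420 (score 3) and Tbc1d24 (score 8) overlapped H3K27me3 by 5 and 13 bp. The TSS lay 997 bp from the edge of the peak at Vav2 and 985 bp at Bhlhe40, and just outside 1023 bp at Akt1 and 1034 bp at Rasip1.

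FS2-AEBP2 was found at few of the replicate-2-only promoter peaks. An FS2-AEBP2 peak overlapped 54 of 1779, or 3.04% (interval 2.33 to 3.94), where it overlapped 28.9% of all AEBP2 replicate 2 peaks. The share was 5.51% (3.76 to 8.0) of the shared promoter peaks, a difference of -2.47 points (-5.06 to -0.502). It was 21.9% (19.4 to 24.5) of the H3K27me3 promoter peaks, which replicate 1 also lacked and whose median score was the same, a difference of -18.8 points (-21.6 to -16.2). It was 7.19% of the distal peaks, a difference of -4.16 points (-6.44 to -2.24). The H3K27me3 promoter peaks were longer, and the part of length in the difference was not tested.

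Seen from the promoters, the share was above that of promoters without AEBP2. Where a promoter had a CpG-island-like region but no H3K27me3, an FS2-AEBP2 peak was present at 62 of the 1889 promoters with a replicate-2-only peak, 3.28% (2.57 to 4.19). It was present at 52 of the 6290 with no AEBP2 peak in either replicate, 0.827% (0.631 to 1.08), which is 2.46 points lower (1.70 to 3.38). At the 531 with a shared AEBP2 peak it was 5.08%, and that difference of -1.80 points had an interval from -4.13 to 0.00596. Over all promoters without H3K27me3 it was 0.859%, and over those with H3K27me3 in both replicates it was 38.2%.

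The 54 peaks with FS2-AEBP2 had a median AEBP2 score of 5.5, against 6 for the others, and their median length was 727.5 bp, above the 482 bp of the others. The FS2-AEBP2 scores at them ran from 1 to 32 with a median of 6, where the whole FS2-AEBP2 list ran from 1 to 130 with a median of 9. The highest were at Psmb3, a subunit of the proteasome (FS2-AEBP2 score 32, AEBP2 score 13, chr11:97563659-97564779), and Fbxo31, an F-box protein of a ubiquitin ligase (32 and 9, chr8:124102406-124103260). Smarcc2, a subunit of the SWI/SNF remodelling complex, followed (26 and 22, chr10:127895477-127895902). Wbp4, a spliceosome-associated protein, had 22 and 13 (chr14:79880603-79881579, shared with the start of Elf1), and Polg, the mitochondrial DNA polymerase, had 21 and 13 (chr7:86610922-86611923). The AEBP2 scores of the peaks with and without FS2-AEBP2 thus lay close together.

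Nearly all of these peaks were CpG-island-like. A region was called CpG-island-like where windows of 500 bp reached 55% GC and held 0.65 or more of the CpGs that their C and G content predicts, a quotient called the CpG ratio. Such a region overlapped 1732 of 1779, or 97.4% (96.5 to 98), where 55% of all promoters held one. The share was 98% of the shared promoter peaks, 93.7% of the H3K27me3 promoter peaks (difference 3.66 points, 2.07 to 5.44) and 47.9% of the distal peaks (difference 49.4 points, 45.6 to 53.2). The distal peaks lay outside promoters by the rule, and the part of this in the last difference was not tested. In the central 300 bp the median GC content was 69.7%, the median CpG ratio 0.921 and the median number of CpGs 33. The shared promoter peaks had 68%, 0.927 and 32. The H3K27me3 promoter peaks had a similar GC content of 66.7% but a lower CpG ratio of 0.749 and 24 CpGs, so the replicate-2-only promoter peaks resembled the shared ones in composition.

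The peaks sat just downstream of the TSS. Their centre lay at a median of 107 bp after it, 1264 (71.1%) lay within 250 bp of it and 1305 (73.4%) contained it. The centre was in an untranslated exon for 707 (39.7%), in an intron for 358 (20.1%), in a coding exon for 316 (17.8%), in another exon for 26 (1.46%) and outside protein-coding genes for 372 (20.9%). The centre of the H3K27me3 promoter peaks lay further in, at a median of 291 bp after the TSS, with 37.3% within 250 bp of it. The centre of the shared promoter peaks lay at 82 bp, with 78.2% within 250 bp.

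In all, 2027 promoters had a replicate-2-only peak, 9.06% of the 22367 protein-coding promoters. Of these promoters, 93 had an H3K27me3 peak elsewhere within 1 kb of the TSS. Of the peaks, 1533 served 1 promoter, 240 served 2 and 6 served more. A divergent start site within 1 kb was found for 288 of 1889 CpG-island-like promoters with such a peak, 15.2% (13.7 to 16.9), and for 15.0% of those with neither AEBP2 nor H3K27me3. It was found for 20.3% (17.1 to 24.0) of those with a shared peak.

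The NRF1 word shown above was held by 326 of the 1779 central windows of 300 bp, 18.3% (16.6 to 20.2), where 6% of windows on all protein-coding TSSs held it on either strand. The share was 34.1% (29.9 to 38.6) of the shared promoter peaks, a difference of -15.8 points (-20.6 to -11.2). It was 3.05% of the H3K27me3 promoter peaks, a difference of 15.3 points (13.1 to 17.3), and 7.91% of the distal peaks, a difference of 10.4 points (7.58 to 13.0). The replicate-2-only promoter peaks therefore stood between the shared peaks and the peaks with H3K27me3. Promoters with H3K27me3 in both replicates, taken without regard to AEBP2, held the NRF1 word in 3.37% of windows on the TSS. For the ETS and YY1 words, treated below, those windows had shares of 1.13% and 0.269%. A word match describes the sequence and does not show that NRF1 was bound.

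The word was also compared in windows centred on the TSS, so that the position of the peak played no part. Among CpG-island-like promoters without H3K27me3 it was held by 422 of the 1889 with a replicate-2-only peak, 22.3% (20.5 to 24.3). It was held by 491 of the 6290 with no AEBP2 peak, 7.81% (7.17 to 8.50), a difference of 14.5 points (12.6 to 16.6), and by 216 of the 531 with a shared peak, 40.7%, a difference of -18.3 points (-22.9 to -13.8). The promoters with a replicate-2-only peak held more CpGs, a median of 30 against 25 without AEBP2.

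At like numbers of CpGs, from 10 upwards, the order was the same. With 10 to 19 CpGs in the window the word was held by 9.78% of promoters with a replicate-2-only peak, 4.90% without AEBP2 and 34.5% with a shared peak, and under 10 CpGs by 0 of 70, 1 of 370 and 1 of 21. With 20 to 29 CpGs the shares were 21.6% (18.6 to 24.9), 9.18% (8.10 to 10.4) and 41.5%. With 30 to 39 CpGs the shares were 26.4% (23.1 to 30.1), 9.30% (7.92 to 10.9) and 47.3%. With 40 or more they were 29.3% (24.7 to 34.4), 9.69% (7.63 to 12.2) and 37.3%.

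Within the replicate-2-only promoter peaks the word went with the score. It was held by 13.1% of those with scores from 1 to 4, 17.2% from 5 to 9, 27.4% (22.9 to 32.3) from 10 to 19, 34.1% from 20 to 29 and 33.3%, or 3 of 9, from 30 upwards. The shared promoter peaks held it at 31.6%, 26%, 39.3%, 35.6% and 34.9% in the same bands. The shares of the 2 groups thus lay near each other at scores of 20 and above, where the replicate-2-only group is small, and apart below that.

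**Figure D2:**
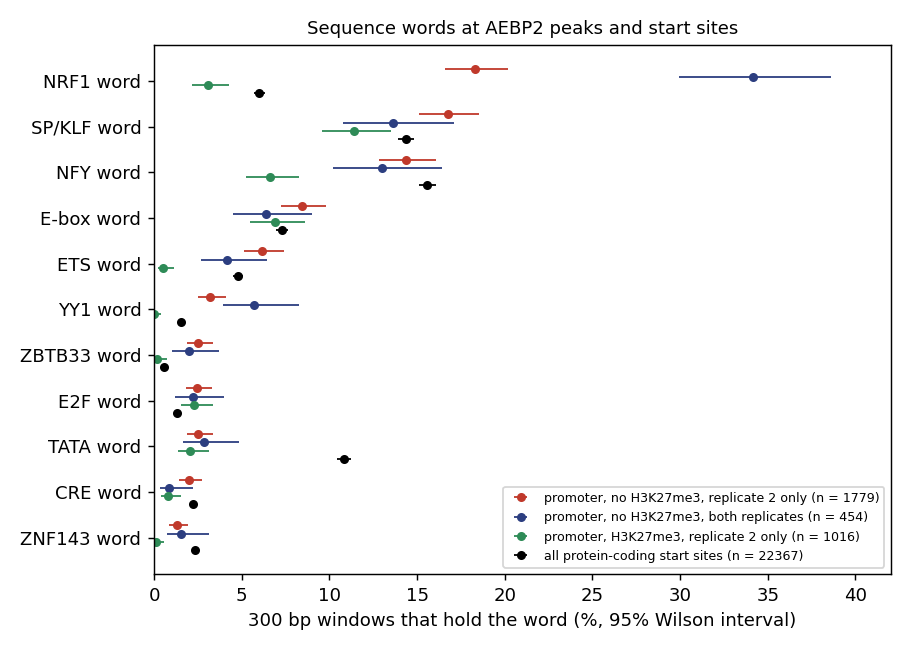
Share of 300 bp windows (horizontal axis, %) that hold each of 11 sequence words on either strand, for 3 groups of AEBP2 replicate 2 promoter peaks and for windows on all protein-coding TSSs, with points for shares and lines for 95% Wilson intervals. The NRF1 word is held by 18.3% of the replicate-2-only promoter peaks, 34.1% of the shared peaks, 3.05% of the H3K27me3 promoter peaks and 6% of TSS windows. This is the widest separation of the 11 words in percentage points.

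The word gathered near the strongest part of the peak, and it gathered near the TSS as well. Around the centre of the inner stretch, 674 words fell within 500 bp and 210 of them (31.2%) within 50 bp. The shares were 33% for the shared promoter peaks and 23% of 87 words for the H3K27me3 promoter peaks. For the SP/KLF word of the replicate-2-only promoter peaks, 126 of 1028 (12.3%) lay within 50 bp. Measured from the centre of the whole peak the NRF1 share was lower, 126 of 668 (18.9%). Measured from the TSS, 288 of 715 NRF1 words (40.3%) lay within 50 bp at CpG-island-like promoters with a replicate-2-only peak and no H3K27me3. At those with neither AEBP2 nor H3K27me3 it was 288 of 850 (33.9%). The word thus gathered at TSSs without a peak too, and the part of TSS position in its place within the peaks was not tested.

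**Figure D3:**
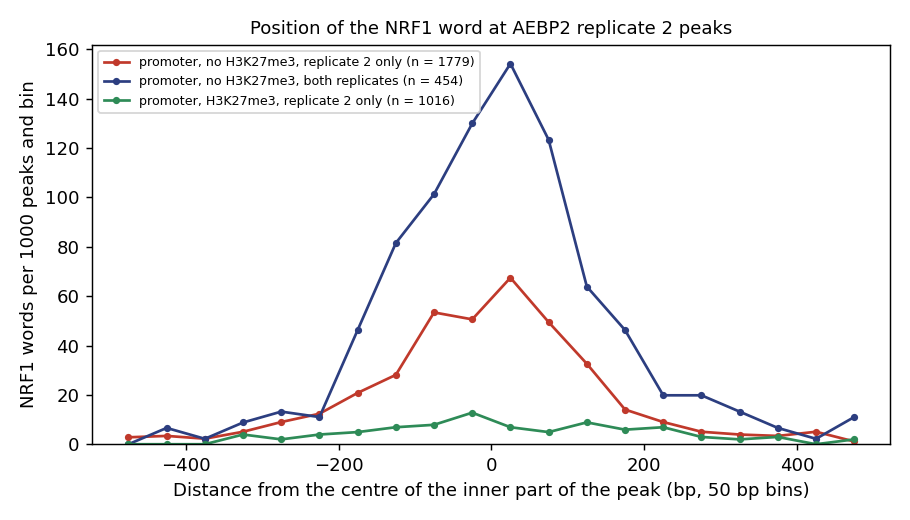
Number of NRF1 words per 1000 peaks (vertical axis) in bins of 50 bp by distance from the centre of the inner stretch (horizontal axis, bp) for 3 groups of AEBP2 replicate 2 promoter peaks, 1 line each. The replicate-2-only promoter peaks reach 67.5 words per 1000 peaks beside the centre and 2.81 at the outermost bin on the left, the shared peaks reach 154 and the H3K27me3 promoter peaks 12.8.

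The replicate-2-only promoter peaks with and without the NRF1 word differed in other measures. The 326 with the word had a median score of 8 and a median length of 394 bp, and the 1453 without it had 6 and 506 bp. An FS2-AEBP2 peak overlapped 1 of the 326, 0.307% (0.0542 to 1.72), and 53 of the 1453, 3.65% (2.80 to 4.74), a difference of -3.34 points (-4.46 to -1.70). The exception with the word was Rcc1, the exchange factor of the GTPase Ran, with an AEBP2 score of 7 and an FS2-AEBP2 score of 5. This split was made after the word's shares were seen, and the part of length was not tested.

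Other words differed less in percentage points. The rare ZBTB33 word, given below, differed from promoters without AEBP2 by fewer points but by a larger factor. The ETS word was held by 110 peaks, 6.18% (5.16 to 7.40), where 4.77% of TSS windows held it. The difference from the shared promoter peaks, 2.00 points, had an interval from -0.483 to 3.92, and the difference from the H3K27me3 promoter peaks was 5.69 points (4.47 to 6.94). In TSS-centred windows of CpG-island-like promoters without H3K27me3 the order turned, with 8.63% at replicate-2-only peaks and 11.1% without AEBP2 (difference -2.52 points, -3.95 to -0.968). The direction for the ETS word thus depended on which promoters it was set against.

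The YY1 word was held by 57 peaks, 3.20% (2.48 to 4.13), against 5.73% of the shared promoter peaks (difference -2.52 points, -5.16 to -0.509) and 0 of 1016 H3K27me3 promoter peaks. In TSS-centred windows of CpG-island-like promoters without H3K27me3 it was held by 4.39% with a replicate-2-only peak and 4.52% with a shared peak (difference -0.126 points, -2.40 to 1.66), and by 3.29% without AEBP2 (difference 1.10 points, 0.144 to 2.20). The lower share than at shared peaks was thus seen in the windows on the peaks only. The ZBTB33 word was rare, and in both kinds of window its share was near that of the shared group. It was held by 45 peaks, 2.53% (1.90 to 3.37), and 0.595% of TSS windows. The shared promoter peaks held it at 1.98% (difference 0.547 points, -1.31 to 1.80). In TSS-centred windows it was held by 3.18% (2.48 to 4.07) of CpG-island-like promoters with a replicate-2-only peak and 0.604% of those without AEBP2 (difference 2.57 points, 1.84 to 3.48). It was held by 3.01% of those with a shared peak (difference 0.163 points, -1.79 to 1.62). The SP/KLF word was held by 16.8% (15.1 to 18.6), against 13.7% of the shared promoter peaks, a difference of 3.09 points with an interval from -0.749 to 6.47. In the TSS-centred windows the shares were 22.7% and 16.4%, a difference of 6.27 points (2.42 to 9.77), and 24.2% without AEBP2 (difference -1.54 points, -3.66 to 0.665).

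The TATA word TATAAA was held by 2.53% of the peaks and 10.8% of all TSS windows, and by 2.86% of the shared promoter peaks. Among TSS windows of CpG-island-like promoters without H3K27me3 it was held by 3.76% with a replicate-2-only peak and 3.82% without AEBP2 (difference -0.0570 points, -0.975 to 0.998). The NFY word was held by 14.4% (12.8 to 16.1) of the peaks and 15.6% of all TSS windows. In the TSS windows of promoters with a replicate-2-only peak it was held by 20.6% (18.9 to 22.4). The share was thus below that of all TSS windows only in the windows on the peaks. In the TSS windows of those CpG-island-like promoters it was 20.6% with a replicate-2-only peak and 18.5% without AEBP2 (difference 2.17 points, 0.154 to 4.28). The words of E2F (TTTCCCGC), ZNF143 and CREB (TGACGTCA) were held by 2.47%, 1.29% and 1.97%, and the E-box CACGTG by 8.43%. In the TSS windows of those CpG-island-like promoters the ZNF143 word was held by 2.96% with a replicate-2-only peak and 4.98% without AEBP2 (difference -2.01 points, -2.89 to -1.01), and the intervals of the differences for the other 3 words held 0. A survey of all words of 8 bases, whose members were chosen by their values, was led against all TSS windows by repeats of CCG. CCGCCGCC was held by 28.7% of the peaks and 12.5% of TSS windows, and CCGCCGCG by 18.3% and 6.75%. Against the shared promoter peaks it was led by fragments of the NRF1 word, such as CGCAGGCG with 13.5% against 25.8%. Other leading words overlapped the NRF1 word and ran past its end, such as CATGCGCA with 6.35% against 14.5%.

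The genes with a replicate-2-only promoter peak were spread over most housekeeping groups at much the same rate. Of the 8796 CpG-island-like promoters without H3K27me3, 1889 had such a peak, 21.5%, and the share for each list of genes is read against that. Counts of the NRF1 word and of FS2-AEBP2 in these lists refer to the promoter of the gene (the TSS-centred window and the 1 kb on either side of the TSS), where 22.3% and 3.28% of those 1889 had them. Of the intervals of 21 lists, 2 lay above 21.5% and the others held it, and no allowance was made for the number of lists.

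Genes of Trithorax and SWI/SNF chromatin complexes, which oppose Polycomb silencing, had the highest share. Of 22 such promoters 10 had a replicate-2-only peak, 45.5% (26.9 to 65.3). The highest scores were at Smarcc2 (22), Smarcb1 (19) and Smarcc1 (15), all core subunits of the SWI/SNF remodeller, and FS2-AEBP2 was found at 1 of the 10, Smarcc2. None of the 10 promoters held the NRF1 word. Of the 27 genes of the list 3 had a shared peak.

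Genes of cytosolic ribosomal proteins had a replicate-2-only peak at 25 of 79, 31.6% (22.4 to 42.5). The highest scores were at Rpl9 (27), Rpl14 (25) and Rps7 (13). FS2-AEBP2 was found at 6 of the 25 genes and the NRF1 word at 2. Mitochondrial ribosomal proteins had 18 of 71, 25.4% (16.7 to 36.6), led by Mrpl54 (18), Mrpl20 (12) and Mrpl44 (10), with FS2-AEBP2 at 0 and the NRF1 word at 4.

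Nuclear genes of oxidative phosphorylation, which include known targets of NRF1, had 14 of 74, 18.9% (11.6 to 29.3), led by Ndufa6 (27), Cox4i1 (8) and Atp5c1 (7). The NRF1 word was held by 7 of these 14, and 12 further genes of the list had a shared peak. Chaperonins and mitochondrial import had 9 of 29, 31% (17.3 to 49.2), led by Tomm20 (23), Timm13 (11) and Cct7 (10). tRNA synthetases had 10 of 35, 28.6% (16.3 to 45.1), led by Farsb (16), Sars (11) and Aars2 (9). Their intervals are wide and hold the background.

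Spliceosome genes had 15 of 60, 25% (15.8 to 37.2), led by Srsf10 (17), Lsm4 (16) and Srsf1 (16). Translation factors had 14 of 55, 25.5%, with Eif5 (17) and Eif3k (14) at the head. Ubiquitin-conjugating enzymes and F-box proteins had 20 of 75, 26.7%, led by Ube2o (21), Fbxo9 (16) and Ube2d3 (16). General transcription factors and RNA polymerase subunits had 17 of 85, 20%, led by Gtf2a1 (14), Polr2a (12) and Polr2j (12). These lists, too, lay about the background.

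DNA replication had 9 of 42, 21.4%, led by Pola2 (25), a subunit of DNA polymerase alpha, Rfc5 (13) and Pole (12). Mitosis genes had 10 of 51, 19.6%, led by the cohesin subunit Rad21 (19). Zinc finger genes named Zfp had such a peak at 40, which is 19.9% (15 to 26), led by Zfp687 (15), Zfp689 (13) and Zfp143 (11). The nuclear pore had 5 of 23, 21.7%, with Nup107 (9) at the head. Proteasome subunits had 5 of 34, 14.7%, led by Psmb3 (13), homologous recombination and Fanconi genes had 4 of 27, 14.8%, led by Xrcc3 (15), and autophagy genes 3 of 21, 14.3%, led by Wipi2 (11).

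Subunits of the Polycomb complexes and developmental regulators also had intervals that held the background. Of PRC2 and PRC1 subunits 4 of 21 had a replicate-2-only peak, 19%, and these were Pcgf1 (9), Pcgf3 (7), the PRC2 core subunit Eed (4) and Rbbp4 (4). Of 171 developmental homeobox, Fox, Sox, Pax, Tbx and Gata genes 144 had an H3K27me3 peak, which the rule left out, and 5 of the 14 CpG-island-like promoters left had a replicate-2-only peak, 35.7% (16.3 to 61.2). All 5 were forkhead genes, namely Foxk1 (13), Foxn2 (10), Foxo3 (7), Foxp4 (3) and Foxo1 (1). Of the pluripotency genes 1 of 9 had one, Tet2 with a score of 3. None of the 1407 olfactory and vomeronasal receptor genes had one, and 3 of them had a CpG-island-like promoter without H3K27me3.

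**Figure D4:**
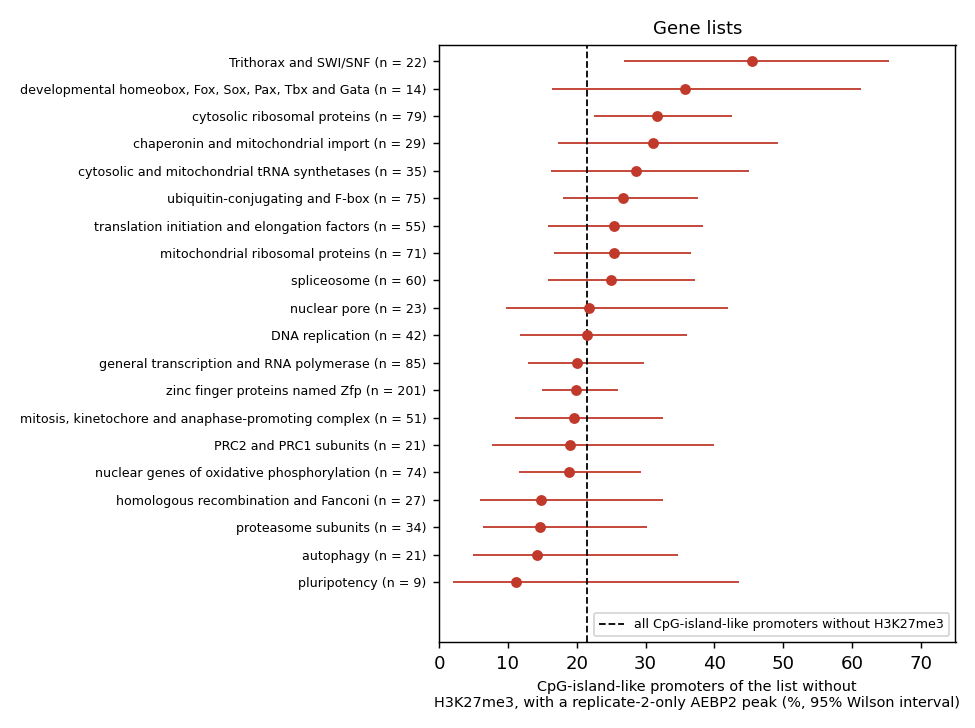
Share of CpG-island-like promoters without H3K27me3 that had a replicate-2-only AEBP2 peak (horizontal axis, %) for 20 lists of genes, with points for shares, lines for 95% Wilson intervals and a dashed line at the 21.5% of all such promoters. The intervals of Trithorax and SWI/SNF genes (45.5%) and cytosolic ribosomal proteins (31.6%) lie above the dashed line, and the other intervals cross it.

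The X chromosome had few of these peaks. On X, 6 of 263 CpG-island-like promoters without H3K27me3 had a replicate-2-only peak, 2.28% (1.05 to 4.89), against 1747 of 8039, 21.7% (20.8 to 22.6), on the autosomes other than 8, a difference of -19.5 points (-21 to -16.7). All 7 peaks on X lay at Pgk1, a glycolytic enzyme (score 12), Mbnl3 (7), Ubqln2 (5), Fmr1 (4), Syn1 (4), BC023829 (4) and Sh3kbp1 (3). No such peak lay on Y. These promoters on X held a median of 21 CpGs, against 27 on the other autosomes, and the part of this in the gap was not tested. The share on X was 1.83% (2 of 109) against 20.1% with 20 to 29 CpGs, and 4.44% (2 of 45) against 26.5% with 30 to 39.

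Every list had a lower share on X. Over all CpG-island-like promoters, AEBP2 replicate 2 was at 19.7% on X and 39% on the other autosomes (difference -19.3 points, -23.3 to -14.7). AEBP2 replicate 1 was at 9.41% and 15.8% (difference -6.42 points, -9.17 to -2.79), and FS2-AEBP2 at 5.88% and 11.7% (difference -5.78 points, -7.91 to -2.69). The H3K27me3 replicates were at 20% against 24.7% (difference -4.71 points, -8.70 to -0.0641) and 21.5% against 27.7% (difference -6.21 points, -10.3 to -1.47). At CpG-island-like promoters without H3K27me3, shared AEBP2 peaks were at 3.04% on X and 5.70% on the other autosomes (difference -2.66 points, -4.24 to 0.230). There FS2-AEBP2 was at 0.380% and 1.79% (difference -1.41 points, -1.85 to 0.351). The intervals of both of these differences held 0. Whether the gaps on X differ between the lists was not tested. The labels give an XY line, and in these lists a single copy of X and weaker binding on it cannot be told apart.

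Chromosome 8 stood at the other end. Of 493 CpG-island-like promoters without H3K27me3, 136 had a replicate-2-only peak, 27.6% (23.8 to 31.7), which was 5.85 points above the other autosomes (1.98 to 10.1). The remaining autosomes ran from 17.6% on chromosome 13 to 25.6% (21.6 to 30.1) on chromosome 3, whose interval overlaps that of chromosome 8. The peaks on chromosome 8 also had higher scores, with a score of 10 or more in 47 of 131, 35.9% (28.2 to 44.4), against 345 of 1641, 21% (19.1 to 23.1), elsewhere on the autosomes. A score of 20 or more was reached by 10, 7.63% (4.2 to 13.5), against 43, 2.62% (1.95 to 3.51).

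The shared AEBP2 peaks showed the same order, at 13.2% of the promoters on chromosome 8 and 5.70% on the other autosomes (difference 7.49 points, 4.73 to 10.8). So did AEBP2 replicate 1 over all CpG-island-like promoters, with 22.4% and 15.8% (difference 6.57 points, 3.52 to 9.91). The H3K27me3 replicates did not, with differences of -1.72 points (-4.83 to 1.67) and -0.598 points, nor did FS2-AEBP2, with 9.81% against 11.7%. At CpG-island-like promoters without H3K27me3, FS2-AEBP2 was lower on chromosome 8, with 2 of 493, 0.406%. The other autosomes had 144 of 8039, 1.79% (difference -1.39 points, -1.82 to -0.291). The number of CpGs was the same, with a median of 27, and the NRF1 word was held by 14.2% and 13.0%. By number of CpGs the excess was uneven, with 27.8% against 13.5% at 10 to 19, 19.8% against 20.1% at 20 to 29 and 36.0% against 26.5% at 30 to 39. Chromosome 8 was singled out after the chromosomes had been compared.

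**Figure D5:**
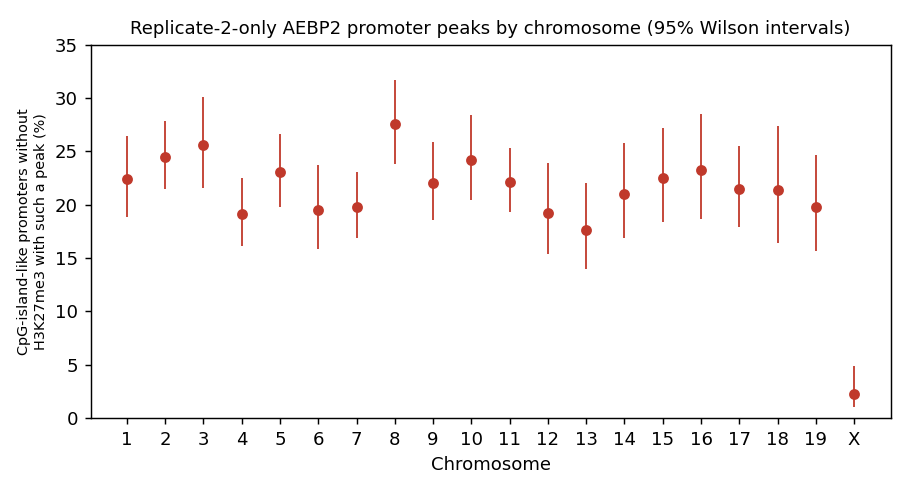
Share of CpG-island-like promoters without H3K27me3 that had a replicate-2-only AEBP2 peak (vertical axis, %) on each chromosome (horizontal axis), with points for shares and lines for 95% Wilson intervals. Autosomes lie between 17.6% (chromosome 13) and 27.6% (chromosome 8), and X lies at 2.28%.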

How the data were processed

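The data were 5 ChIP-seq peak lists, with 2 replicates each for AEBP2 and H3K27me3 and 1 sample for FS2-AEBP2. The authors aligned reads, called broad peaks in each sample separately and deposited each peak with a whole-number score whose scale is not stated. The submitters' processing notes name Bowtie, SAMtools, Picard and MACS2 2.0.10.2, and thresholds and duplicate handling are not given in the sources used here. The deposited positions are on mm9. The sample records decided which list belonged to which replicate, although for H3K27me3 the list names appear to bear the other replicate's number. Both H3K27me3 lists were used alike.

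Chromosomes 1 to 19, X and Y were kept, which left out 2 of 2879 peaks of AEBP2 replicate 1 and 13 of 9288 of H3K27me3 replicate 2. Overlap meant at least 1 bp. TSSs came from GENCODE vM1, 1 per protein-coding gene, and sequence from NCBIM37 (mm9). CpG-island-like windows of 500 bp were taken every 10 bp. Words were counted on both strands in 300 bp windows, and may overlap each other. No test over peaks was made. The calling of overlaps, of the NRF1 word and of CpG-island-like regions was tested on simulated data.

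The peaks, gene lists and words were chosen with earlier results of these data known. Named genes were the 10 highest scores, the 5 highest FS2-AEBP2 scores, the 3 longest peaks, up to 3 genes per list, up to 2 peaks on each side of a limit, and for each word the highest-scoring peak outside chromosome 18 with the word within 50 bp of its centre. Further names are marked where they stand, and 1 sequence is not reported here. Alternatives changed the overlap, score, distance, promoter size, lists, CpG-island-like definition and word window. The software was samtools 1.23.1 and Python 3.11.15 with pysam 0.24.0, scipy 1.17.1, matplotlib 3.10.9, pandas 2.3.3 and numpy 2.4.6.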

Additional observations from a re-analysis of the deposited data

How the results depend on the processing

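The number of replicate-2-only promoter peaks was 773 when replicate 2 peaks scoring under their list's median were dropped, with a median score of 10, a CpG-island-like share of 98.3% and an NRF1 word share of 25.2%. The CpG-island-like share was 96.3% with promoters of 2.5 kb on either side, and 99.7% under a looser definition (windows of 200 bp, GC content of at least 50%, CpG ratio of at least 0.6). The share with FS2-AEBP2 was 1.12% for FS2-AEBP2 peaks at or above the median score and 1.57% with an overlap of at least 50% of the peak. Windows of 200 and 500 bp gave the ETS word in 3.77% and 9.11% and the NRF1 word in 12.5% and 24.8%, and windows on the inner stretch gave the NRF1 word in 23.8%. Longer windows hold more bases. Without AEBP2 replicate 1, or either H3K27me3 replicate, in turn, the number of peaks ran from 1834 to 2233, the median score from 6 to 7, the CpG-island-like share from 96.9% to 97.5%, the FS2-AEBP2 share from 3.0% to 3.54%, the ETS word from 5.78% to 6.05% and the NRF1 word from 17.9% to 21.5%. Under the same removals the share of CpG-island-like promoters ran from 2.28% to 5.32% on X, from 27.6% to 40.8% on chromosome 8 and from 21.8% to 27.4% on the other autosomes. X stayed below and chromosome 8 above the other autosomes under all 8 alternatives tried for them. The alternatives for the NRF1 word and for chromosomes were chosen after seeing the data. No paired analysis was possible because the results come from no test. The depth of the lists is unknown, and the number of peaks called depends on it, so whether replicate 1 missed these promoters or did not hold them cannot be told apart here.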
